A study of Mus musculus with 22 samples.

Results

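The 10 genes of inducible epithelial defence were examined in the mouse gut: the hydrogen peroxide enzyme Duox2 and its maturation factor Duoxa2, the inducible nitric oxide synthase Nos2, the serum amyloids Saa1, Saa2 and Saa3, the siderophore-binding lipocalin Lcn2, the calprotectin subunits S100a8 and S100a9, and the immunoglobulin transporter Pigr. They are 10 of the 27670 gene names on the array. The gene name column of the scanner output listed 9 of them, and Duoxa2 was found by its RefSeq accession, because that column gives it under an older clone name. The 10 genes have 11 probes, of which Saa1 has 2. Values come from 22 Agilent Whole Mouse Genome arrays, each hybridised with Cy3-labelled cRNA of 1 sample of ileum or colon. All mice were male C57BL/6 animals on a chow diet and were either flox controls or SIRT1 iKO mice, in a study of intestinal SIRT1. Ileum came from young mice of 6 to 8 weeks (4 flox, 4 iKO) and from aged mice of 24 months (3 flox, 4 iKO), and colon came from aged mice of 24 months (3 flox, 4 iKO). The labels do not spell out iKO, and they name neither the Cre driver nor the deleted part of Sirt1. They also do not say if a mouse gave both tissues, or which samples are separate animals, so p-values here measure only the spread between these samples.

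These genes are the part of gut defence that surface cells switch on when microbes come close. Duox2 is a membrane oxidase that releases hydrogen peroxide into the lumen and needs Duoxa2 to leave the endoplasmic reticulum, while Nos2 makes nitric oxide from arginine. Serum amyloids bind retinol and lipids and are strongly induced in the ileal epithelium by adherent bacteria, through interleukin 22 and STAT3. Lcn2 and calprotectin starve microbes of iron and of zinc and manganese, and neutrophils carry both. Pigr carries dimeric IgA across the epithelium and is expressed at a high level at all times.

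Sequences are given first for the 2 groups of genes whose levels moved together from array to array. Duox2 and Duoxa2 lie head to head, and the stretch between their start sites is 159 bases long. It is printed from the RefSeq promoter table of GRCm38.p6, chr2:122298741-122298899, on the strand of Duoxa2.
Duox2 and Duoxa2: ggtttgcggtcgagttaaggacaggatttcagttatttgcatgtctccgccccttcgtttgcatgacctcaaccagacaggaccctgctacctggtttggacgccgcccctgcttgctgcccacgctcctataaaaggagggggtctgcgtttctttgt
The 250 bases before the start site of Saa2 stand for the serum amyloids (GRCm38.p6, chr7:46751583-46751832, plus strand). Capitals mark a match to TTGCNNAA, a motif of the C/EBP family.
Saa2: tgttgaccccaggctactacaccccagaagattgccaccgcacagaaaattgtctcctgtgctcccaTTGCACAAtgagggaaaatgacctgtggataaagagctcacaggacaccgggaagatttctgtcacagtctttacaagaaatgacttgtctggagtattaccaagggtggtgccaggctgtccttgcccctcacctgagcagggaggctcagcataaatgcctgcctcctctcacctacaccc
The same window of Saa1 was 94.8% identical to that of Saa2, with the same match, and the window of Saa3 was 52.5% identical to that of Saa1. Lcn2 followed the serum amyloids less closely by Pearson correlation in the ileum, where some of its spots were not well above background. It carries the same motif, whose part in these levels was not tested, and is shown here (GRCm38.p6, chr2:32387740-32387989, minus strand).
Lcn2: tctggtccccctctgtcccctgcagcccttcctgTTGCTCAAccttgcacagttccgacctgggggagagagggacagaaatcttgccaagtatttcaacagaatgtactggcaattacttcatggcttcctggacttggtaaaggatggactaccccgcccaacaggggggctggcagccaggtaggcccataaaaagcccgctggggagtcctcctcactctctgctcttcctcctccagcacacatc

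RefSeq promoters, which run from 250 bases before the start to 50 bases after it, were matched for 9 of the 10 genes. On both strands, TTGCNNAA was found in 5 of the 9 (Saa1, Saa2, Saa3, Lcn2 and S100a9), against 10.8% of all 32851 promoters. The STAT motif TTCNNNGAA was found in 1 of the 9 (Pigr), against 8.30% of all promoters, and the kappa B consensus was found in 0 of the 9, against 8.46%. The windows of Saa1 and Saa2 are nearly alike, so their matches do not count separately, whereas the Saa3 match lies elsewhere in its window. A match describes these letters only.

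The serum amyloids also share sequence in the transcribed part, which bears on how separately the array measured them. The probe of Saa1 with the brighter signal lies at chr7:42916901-42916960 and that of Saa3 at chr7:42888862-42888921, both on the minus strand of mm7, the build that the array design uses.
Saa1 probe: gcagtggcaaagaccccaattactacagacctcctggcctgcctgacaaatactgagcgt
Saa3 probe: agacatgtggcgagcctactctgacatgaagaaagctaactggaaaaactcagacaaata
The array annotation lists the accession of Saa1 for the Saa3 probe as well as for both Saa1 probes. How the signal divides between the 3 serum amyloids was therefore uncertain, and they are described as a family.

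A level here is the log2 of the processed spot signal minus the log2 of the array's 75th percentile, so that 0 is the 75th percentile and a step of 1 is a doubling. Levels are compared between arrays for 1 gene and never between genes, since each probe has its own brightness. Between 49.8% and 61.5% of spots were well above background on ileum arrays and between 70.4% and 79.7% on colon arrays. The number of arrays limits the precision. Fabp6, which binds bile acids in the ileum, lay between 3.20 and 3.93 on all 15 ileum arrays and between -4.89 and -2.55 on the colon arrays, as the tissue labels state. Car1, an absorptive colon enzyme, lay between 8.17 and 8.74 on colon arrays, but it also reached 8.18 on aged ileum flox replicate 1 and 7.79 on aged ileum iKO replicate 2. On those 2 arrays the summed signal of 11 colon markers was 480 and 357 times the 75th percentile, against 67.0 to 95.4 on the other aged ileum arrays and 668 to 874 on colon arrays. For the defence genes, the main results that rest on these 2 arrays are given with and without them. The 10 epithelial markers summed to between 2036 and 2723 on ileum arrays. In bulk tissue, fewer cells of a type and less RNA per cell cannot be told apart.

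The targeted gene Sirt1 was measured first. Its level was 0.96, 0.60, 1.19 and 0.92 in young ileum flox and 0.64, 0.72, 0.70 and 0.75 in young ileum iKO. It was 0.59, 1.09 and 0.78 in aged ileum flox and 0.28, 0.32, 0.30 and 0.39 in aged ileum iKO, and in colon it was 0.79, 0.79 and 0.76 in flox and 0.41, 0.59, 0.65 and 0.34 in iKO. For this probe, the brighter of a pair, the groups overlapped in young ileum and did not overlap in aged ileum or colon. On the second Sirt1 probe they overlapped in all 3 comparisons, with group means of -0.28 in flox and -0.28 in iKO in young ileum, -0.72 and -0.82 in aged ileum, and -0.64 and -0.77 in colon. The difference on the brighter probe, iKO minus flox, was -0.21 ± 0.12 (SE, adjusted p = 0.999) in young ileum, -0.50 ± 0.13 (adjusted p = 0.177) in aged ileum and -0.28 ± 0.11 (adjusted p = 0.623) in colon by limma, with Benjamini-Hochberg adjustment over all genes tested. Either probe may lie outside the deleted part, so they check the labels only weakly.

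None of the defence genes differed by genotype at an adjusted p of 0.05, in either age or tissue. In young ileum 0 of the 9 tested passed limma's test, where 0.0452% of 15487 genes did, and 0 had an unadjusted p under 0.05, where 641 genes did. In aged ileum 0 of 9 passed, against 0.168% of all genes, and 0 had an unadjusted p under 0.05, where 1849 genes did. In colon 0 of the 8 tested passed, against 0.112% of 19588 genes, and 2 (Duox2 and Duoxa2) had an unadjusted p under 0.05, where 1413 genes did. S100a8 was too dim to be tested in any fit, and Nos2 was too dim in the colon fit.

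The group means were nonetheless all on 1 side in the ileum. All 10 means were higher in iKO than in flox in young ileum, with a median difference of 0.46, and all 10 in aged ileum, with a median difference of 1.32. In colon 6 of 10 means were higher, with a median of 0.23. The medians over all genes were -0.0061, 0.018 and -0.012. Counts over 10 genes, here and within slides, include spots not well above background, among them every young ileum spot of S100a8. All 9 tested genes were higher in iKO in young ileum, with a median of 0.57. The 10 genes varied together from array to array, so their shared direction is not 10 separate observations. In young ileum 1 array weighed heavily: without young ileum flox replicate 3, 3 of the 9 tested genes were higher in iKO and the median difference was -0.03. Each young slide held 1 array of each genotype, and within slides iKO was higher on 3 of 4 slides for 7 genes and on 4 of 4 for Saa1, Saa2 and Saa3. Leaving out that array together with its slide partner, which was chosen after the levels were seen, the mean within-slide difference was above 0 for 8 of 10 genes, with a median of 0.15 against 0.46 over all 4 slides. In aged ileum all 9 tested were higher in iKO with all arrays (median 1.35), and all 9 without the 2 arrays with high colon markers, where the median difference was 1.59. With the slide as a fixed factor, 8 of the 9 were higher and the median was 0.30. Only 1 slide held aged ileum of both genotypes, so genotype and slide are hard to separate there. Marker lists of other cells also lay on 1 side by group mean, with 0 genes passing by limma. All 8 fat markers tested were lower in iKO in young ileum (median -1.86) and in aged ileum (median -1.09), and all 6 T cell markers were higher in both (medians 0.44 and 0.51). In aged ileum all 7 colon markers (median -0.50), all 8 fibroblast markers (median -0.50) and all 6 smooth muscle markers (median -0.22) were lower in iKO, and all 5 Paneth cell markers were higher (median 0.29). These aged marker differences include the 2 arrays with high colon markers, 1 in each genotype, and were not taken without them. Summed fat markers ran from 19.9 to 127 times the 75th percentile in young flox, 9.21 to 164 in young iKO, 47.5 to 177 in aged flox and 31.1 to 47.3 in aged iKO. Summed T cell markers ran from 2.14 to 7.17 in young flox, 4.99 to 7.95 in young iKO, 2.74 to 5.43 in aged flox and 3.24 to 8.78 in aged iKO. The part of these cells in the defence gene levels was not tested.

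**Figure D1:**
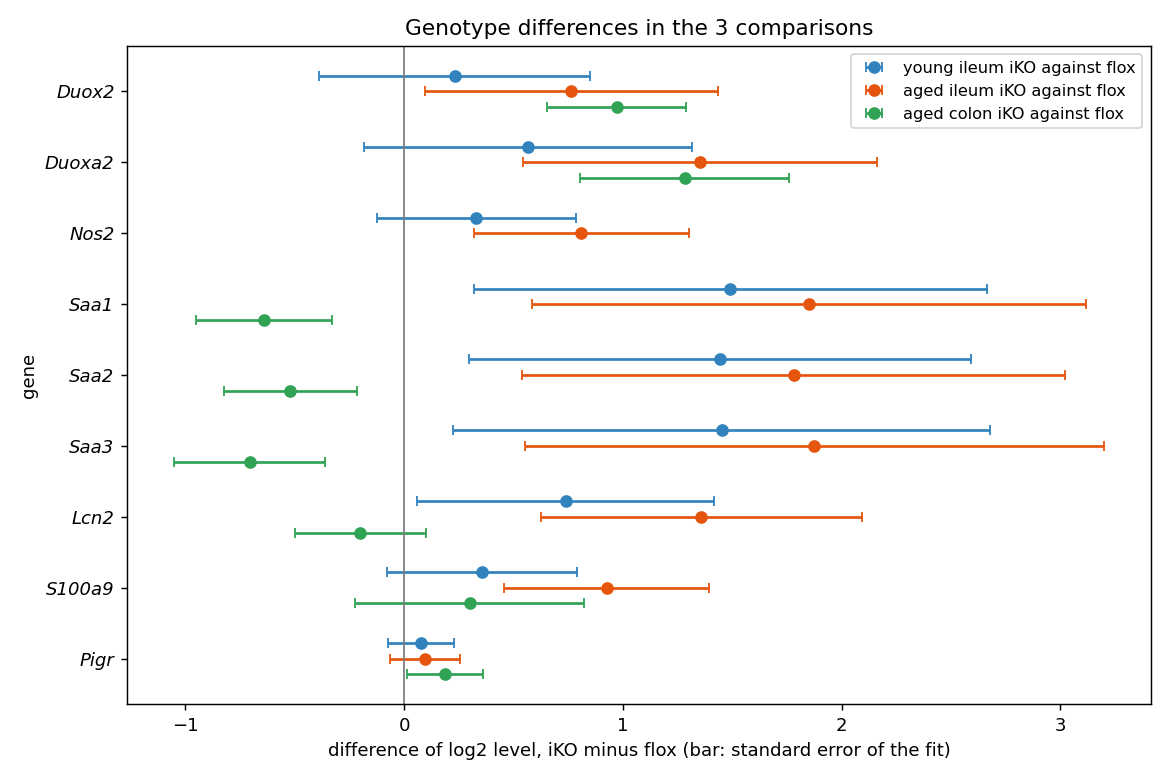
Difference of the log2 level, iKO minus flox, for each of the 9 genes that could be tested in young ileum (blue), aged ileum (orange) and aged colon (green); bars are the standard error of the limma fit and S100a8 is not shown because it was too dim. All points of both ileum comparisons lie above 0, the serum amyloids of the colon lie below 0, and 0 of the differences passed the adjusted p of 0.05.

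Every array of 1 genotype lay above every array of the other for few of these genes. This was so for 0 of 10 in young ileum, where 0.981% of all genes had every iKO array higher. It was so for 1 of 10, Nos2, in aged ileum, where 8.37% of all genes did, and for 1 of 10, Duox2, in colon, where 4.43% did. Without the 2 aged ileum arrays with high colon markers, 7 of the 9 tested genes had all 3 remaining iKO arrays above both remaining flox arrays, against 16.7% of all genes. Lcn2 and Pigr were the other two. That comparison of 3 arrays with 2 was chosen after the markers were seen. For each of the 7 genes, the flox array left out was the highest aged flox array, so leaving it out favours separation. The genes also varied together, so the 7 are not separate observations.

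Duox2 and Duoxa2 were higher in the colon of iKO mice than of flox mice by the group means, and they varied over a wide range in the ileum of both genotypes. In young ileum, Duox2 stood at 1.29, 0.48, -1.61 and -0.59 in flox and at 1.39, 0.26, -0.14 and -1.02 in iKO. In aged ileum it stood at 1.00, -1.12 and -0.02 in flox and at 0.58, 0.53, 1.04 and 0.72 in iKO. The 4 aged iKO arrays were close together (SD 0.230), whereas the other 3 ileum groups each had SDs between 1.00 and 1.26, and genotypes overlapped at both ages. The difference in Duox2 was 0.23 ± 0.62 (adjusted p = 0.999) in young ileum and 0.76 ± 0.67 (adjusted p = 0.671) in aged ileum by limma. Without young ileum flox replicate 3 the young difference was -0.27. The aged difference was 1.35 ± 0.80 (adjusted p = 0.566; limma) without the 2 arrays with high colon markers, 1.29 without aged flox replicate 1 alone, 0.23 without aged flox replicate 3 and 0.31 with the slide as a fixed factor.

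In colon, Duox2 stood at -1.42, -0.72 and -0.83 in flox and at 0.71, -0.0036, -0.18 and -0.60 in iKO. All 4 iKO arrays lay above all 3 flox arrays, the nearest values being -0.60 and -0.72. The difference was 0.97 ± 0.32 (adjusted p = 0.526; limma). Duoxa2 stood at 0.72, 2.02 and 1.30 in colon flox and at 3.70, 2.68, 2.23 and 1.89 in colon iKO, where the lowest iKO array fell below the highest flox array. Its difference was 1.28 ± 0.48 (adjusted p = 0.604; limma). On each of the 3 slides that held 1 colon array of each genotype, Duox2 was higher in iKO by 0.65 to 0.82 and Duoxa2 by 0.66 to 1.17. Colon flox arrays all lay in position 3 of a slide and colon iKO arrays in position 4, so genotype and position cannot be told apart there.

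Duoxa2 in the ileum followed Duox2. Its levels were 5.06, 4.38, 1.18 and 2.97 in young flox, 5.29, 3.79, 3.62 and 3.15 in young iKO, 4.45, 1.87 and 3.01 in aged flox and 4.12, 4.39, 4.62 and 4.72 in aged iKO. The lowest arrays were young flox replicate 3 and aged flox replicate 3, the same 2 arrays that were lowest for Duox2. The order of the group means was the same for both genes in the ileum apart from the 2 flox groups: aged iKO was highest and young iKO next. Neighbours in that order overlapped.

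Nos2 was the gene with the clearest split between ileum and colon. In the ileum it stood at -1.86, -2.37, -4.21 and -3.39 in young flox, at -1.61, -2.63, -2.83 and -3.44 in young iKO, at -2.64, -3.52 and -3.31 in aged flox and at -2.31, -2.48, -2.29 and -2.31 in aged iKO. The aged iKO arrays were tightly grouped and lay just above the aged flox arrays, the nearest values being -2.48 and -2.64. Young flox replicate 3, the lowest, was not well above background. In colon all 3 flox arrays (-8.21, -8.02 and -6.64) and 2 of the 4 iKO arrays (-6.72 and -7.45) were not well above background, while the other two iKO arrays read -5.48 and -5.67. No fold between colon genotypes can therefore be given.

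**Figure D2:**
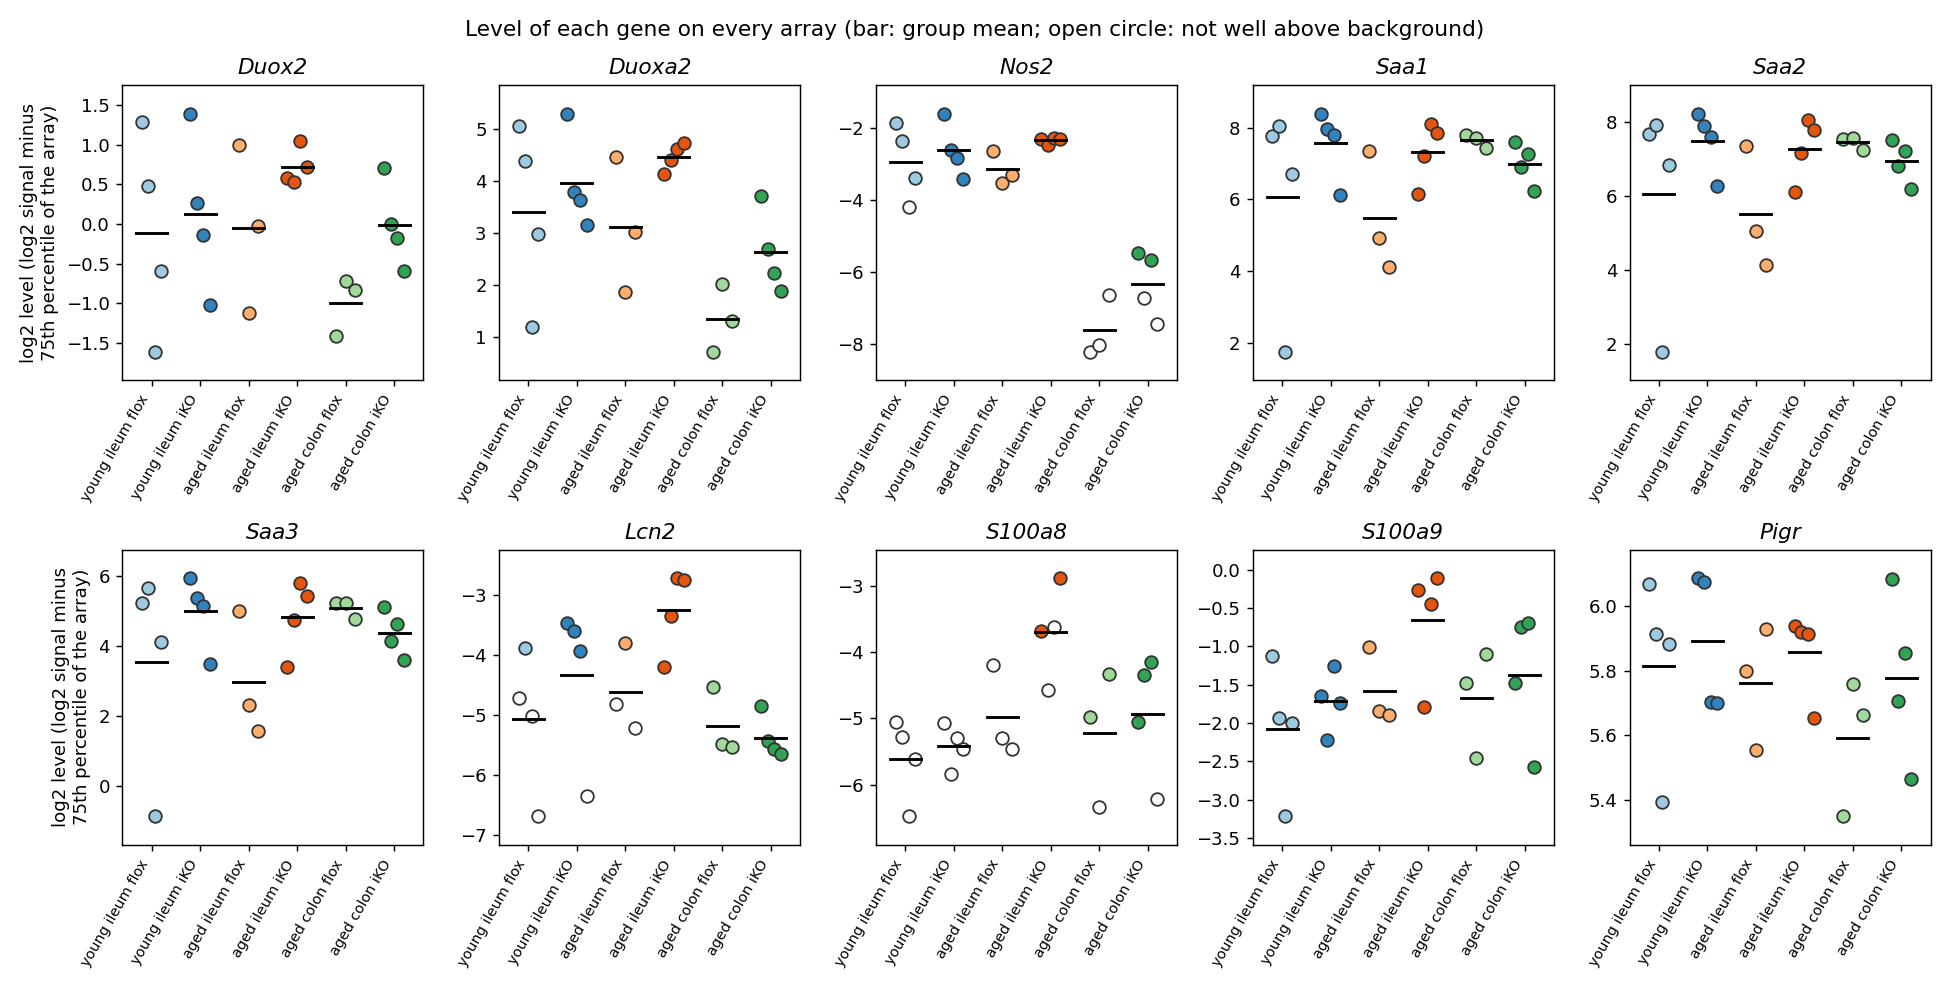
Log2 level (log2 signal minus the 75th percentile of the array) of each gene on every array, 1 panel a gene with its own axis; columns are the 6 groups, bars are group means and open circles are spots not well above background. The 4 aged ileum iKO arrays of Duox2, Duoxa2 and Nos2 sit close together, young ileum flox replicate 3 sits far below the rest for Saa1, Saa2 and Saa3, and most S100a8 circles are open.

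The serum amyloids had the widest spread of the set, and 1 array was far lower than all others. Saa1 stood at 7.76, 8.04, 1.77 and 6.70 in young flox ileum and at 8.39, 7.95, 7.78 and 6.12 in young iKO ileum. The next lowest ileum array after flox replicate 3, at 1.77, was aged flox replicate 4, at 4.13. Saa1 stood at 7.36, 4.94 and 4.13 in aged flox ileum and at 6.15, 7.21, 8.10 and 7.85 in aged iKO ileum. The genotypes overlapped at both ages. The highest aged flox value, 7.36, came from the aged flox array with high colon markers, and Saa1 was between 7.43 and 7.78 in colon flox. That array was also the highest aged flox array for Duox2 (1.00) and Duoxa2 (4.45), whose colon flox means were -0.99 and 1.34. The part of colon tissue in these values was not tested.

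Group means of Saa1 differed by 1.49 between iKO and flox in young ileum and by 1.85 in aged ileum, which did not pass. Without young flox replicate 3 the young difference was 0.06. Without the 2 aged arrays with high colon markers the aged difference was 2.83 ± 1.52 (adjusted p = 0.519; limma), and with the slide as a fixed factor it was 0.21 ± 1.39 (adjusted p = 0.980; limma). On the 4 slides that held 1 young array of each genotype, Saa1 was higher in iKO on all 4, by 0.19 to 4.35. Only 1 slide held aged ileum of both genotypes, and there it was higher in iKO by 2.27, the iKO array being 1 of the 2 with high colon markers. In colon it stood at 7.78, 7.71 and 7.43 in flox and at 7.61, 6.91, 7.25 and 6.23 in iKO, overlapping, and was lower in iKO on 3 of 3 slides, by 0.18 to 1.55.

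Saa2 and Saa3 followed Saa1. Saa2 ranged from 1.78 to 8.24 in the ileum and from 6.20 to 7.57 in colon, and Saa3 from -0.86 to 5.93 and from 3.60 to 5.22. The second Saa1 probe gave the same picture, with group means of 5.59 in young flox, 7.11 in young iKO, 4.93 in aged flox and 6.83 in aged iKO ileum.

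Lcn2 was near the detection limit in most of the ileum. It stood at -4.71, -3.87, -5.01 and -6.69 in young flox, at -3.46, -3.59, -3.93 and -6.34 in young iKO, at -4.80, -3.80 and -5.22 in aged flox and at -4.20, -3.34, -2.71 and -2.74 in aged iKO. Only 1 young flox array, 3 young iKO arrays and 1 aged flox array were well above background, against all 4 aged iKO arrays, and Lcn2 entered the ileum fit through that group alone. Its ileum differences are thus set largely against dim spots, and the order of the other ileum groups is not settled. The genotypes overlapped at both ages. The difference was 0.74 ± 0.68 (adjusted p = 0.999) in young ileum and 1.36 ± 0.73 (adjusted p = 0.478) in aged ileum by limma. The young difference was 0.20 without young flox replicate 4, the lowest array, and 1.41 without young iKO replicate 4. The aged difference ran from 1.05 to 1.76 leaving out 1 array, and was 0.62 with normexp background correction. In colon, where all 7 arrays were well above background, Lcn2 stood at -4.52, -5.47 and -5.52 in flox and at -4.85, -5.44, -5.56 and -5.65 in iKO, a difference of -0.20 ± 0.30 (adjusted p = 0.971; limma).

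The calprotectin subunits were measured unevenly. S100a8 was not well above background on any young ileum array or aged flox ileum array, and it was well above background on 2 of 4 aged iKO ileum arrays. It read -4.20, -5.29 and -5.47 in aged flox ileum and -3.68, -4.57, -3.63 and -2.89 in aged iKO ileum, of which only replicates 1 and 4 of iKO were measured above background. The groups overlapped, and no fold is given. S100a9 was well above background on all 22 arrays. It stood at -1.13, -1.94, -3.22 and -2.0 in young flox, at -1.65, -2.22, -1.25 and -1.75 in young iKO, at -1.0, -1.84 and -1.90 in aged flox and at -0.27, -1.79, -0.45 and -0.11 in aged iKO. Of the 4 aged iKO arrays, 3 lay above all other ileum arrays, and the remaining one, at -1.79, was the iKO array with high colon markers.

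S100a9 differed by 1.06 ± 0.44 between aged and young iKO ileum (adjusted p = 0.134; limma), and by 1.44 (adjusted p = 0.0469; limma) without the 2 arrays with high colon markers. Its aged genotype difference of 0.93 became 1.59 ± 0.46 (adjusted p = 0.216; limma) without them. The iKO array left out was the lowest aged iKO array for S100a9, so leaving it out widens both differences. In colon S100a9 ranged from -2.45 to -1.10 in flox and from -2.58 to -0.69 in iKO. Neutrophils carry calprotectin, and 13 neutrophil markers summed to 0.467 to 0.934 times the 75th percentile in the ileum and 0.250 to 0.411 in colon. The receptor Cxcr2 and the elastase Elane were not well above background on any of the 15 ileum arrays, and Csf3r was on 1, an aged iKO array. The aged iKO sums were 0.491 to 0.732, but only 1 to 5 of the 13 markers were well above background on those arrays. Csf3r, the receptor of a neutrophil growth factor, had a mean of -4.10 in aged iKO and of -5.16 in aged flox ileum. The neutrophil marker Mpo went the other way, with a mean of -4.88 in aged iKO and of -3.85 in aged flox ileum. Mpo was well above background on 1 of 4 of those iKO arrays and on 2 of 3 of those flox arrays. The part of neutrophils in the S100a9 and Lcn2 values was not tested.

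Pigr was the most even gene of the set. It lay between 5.40 and 6.09 on all ileum arrays and between 5.35 and 6.08 on all colon arrays. The lowest ileum value again belonged to young flox replicate 3. Pigr differed between iKO and flox by 0.077 ± 0.15 (adjusted p = 0.999) in young ileum, by 0.095 ± 0.16 (adjusted p = 0.841) in aged ileum and by 0.19 ± 0.17 (adjusted p = 0.926) in colon by limma, each with overlapping arrays. The sign in young ileum turned without young flox replicate 3, to -0.063. In aged ileum it turned with the slide as a fixed factor, to -0.020, with array weights, to -0.083, and without aged flox replicate 3, to -0.0076.

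The spread among arrays of one group was large beside that of other genes. It was taken as the residual SD of the log2 level after group means were removed. In the ileum it was 1.91 for Saa3, 1.82 for Saa1, 1.79 for Saa2, 1.17 for Duoxa2, 1.05 for Lcn2 and 0.962 for Duox2, where the median of 15487 genes was 0.203. These values stood at the 99.9, 99.8, 99.8, 99.1, 98.7 and 98.3 percentiles of all genes tested. Nos2 (0.706) and S100a9 (0.673) stood at the 95.4 and 94.6 percentiles, and Pigr (0.218) at the 54.7 percentile. In colon, where the median of all genes was 0.216, the largest were S100a9 (0.810, 96.2 percentile) and Duoxa2 (0.736, 94.8 percentile), and the serum amyloids had 0.458 to 0.527.

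**Figure D3:**
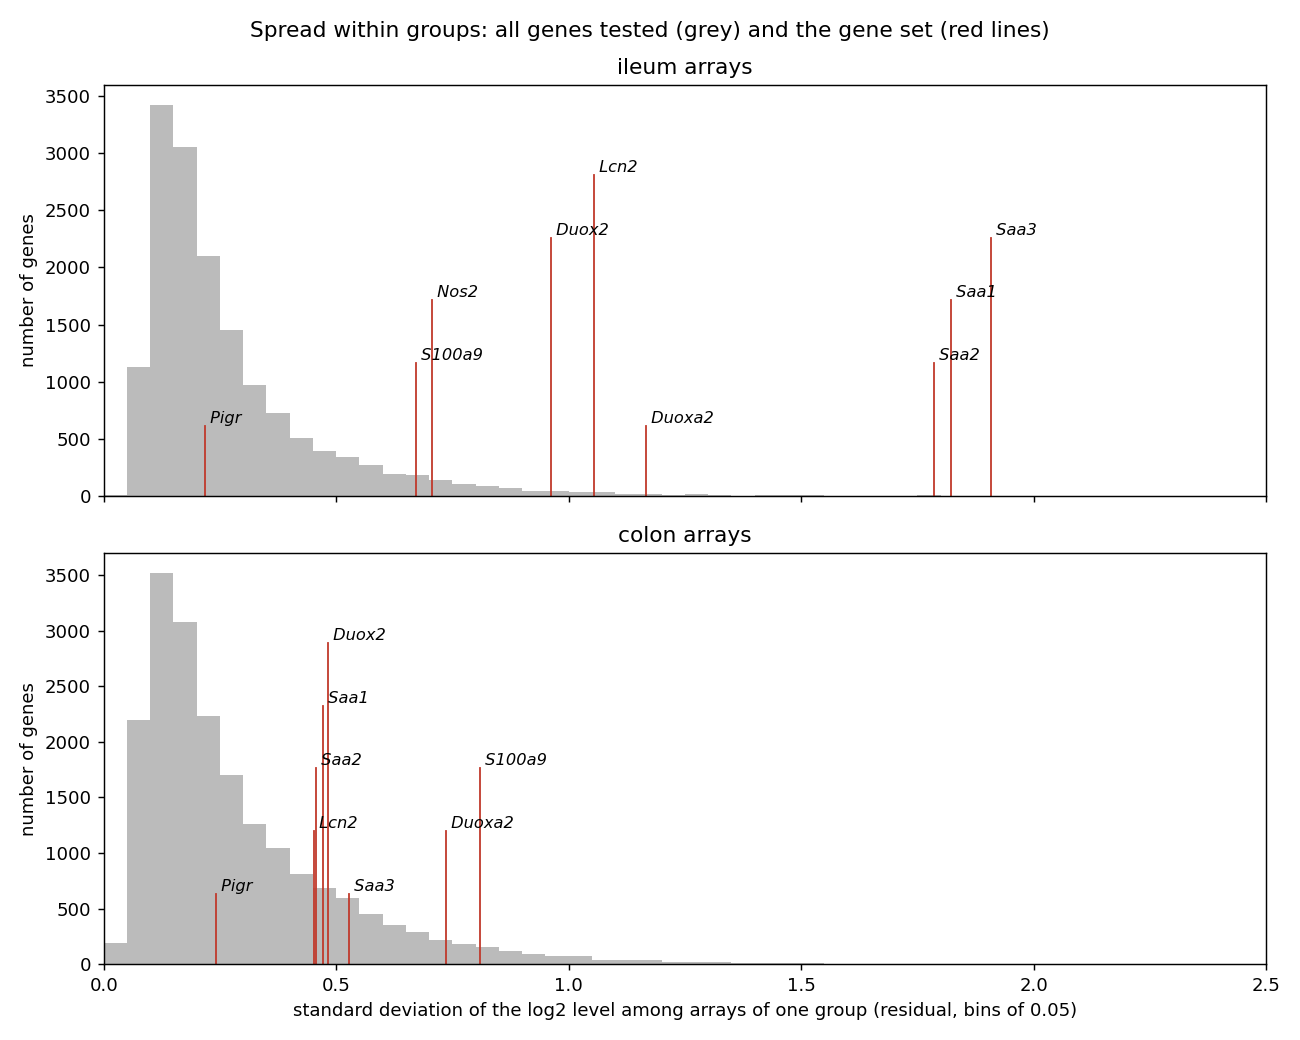
Residual standard deviation of the log2 level within groups for all genes tested (grey bars, number of genes in bins of 0.05) on the ileum and colon arrays, with the defence genes as red lines at their own values; the height of a line only makes room for its name. In the ileum Saa1, Saa2 and Saa3 lie between 1.79 and 1.91 while Pigr, at 0.218, lies among the bulk of genes.

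A single array carried much of the ileum spread of the serum amyloids. Young flox replicate 3 was the lowest of the 15 ileum arrays for 9 of the 10 genes, the exception being Lcn2, and young iKO replicate 1 was the highest for 7. Without young flox replicate 3 the residual SD was 1.09 for Saa1, 1.03 for Saa2, 1.20 for Saa3, 0.917 for Duoxa2 and 0.847 for Duox2, and it was 1.11 for Lcn2. From the lowest to the highest ileum array Saa3 covered 110-fold, Saa1 98.3-fold, Duoxa2 17.3-fold, Duox2 7.99-fold and Pigr 1.61-fold. No range is given for Lcn2, whose lowest spots were not well above background, and its spread and correlations in the ileum include such spots. In colon the ranges were 7.93-fold for Duoxa2, 4.36-fold for Duox2, 2.93-fold for Saa1 and 1.66-fold for Pigr.

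Other genes were recorded on young flox replicate 3 beside these values. Its epithelial sum of 2534 lay inside the range of the young arrays, and its ileum marker sum of 973 was the highest of all ileum arrays. Its T cell marker sum of 2.14 was the lowest of all ileum arrays, the other young arrays having 4.68 to 7.95. Its share of spots well above background was 58.6%, inside the ileum range. The part of T cells in the low defence levels was not tested.

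**Figure D4:**
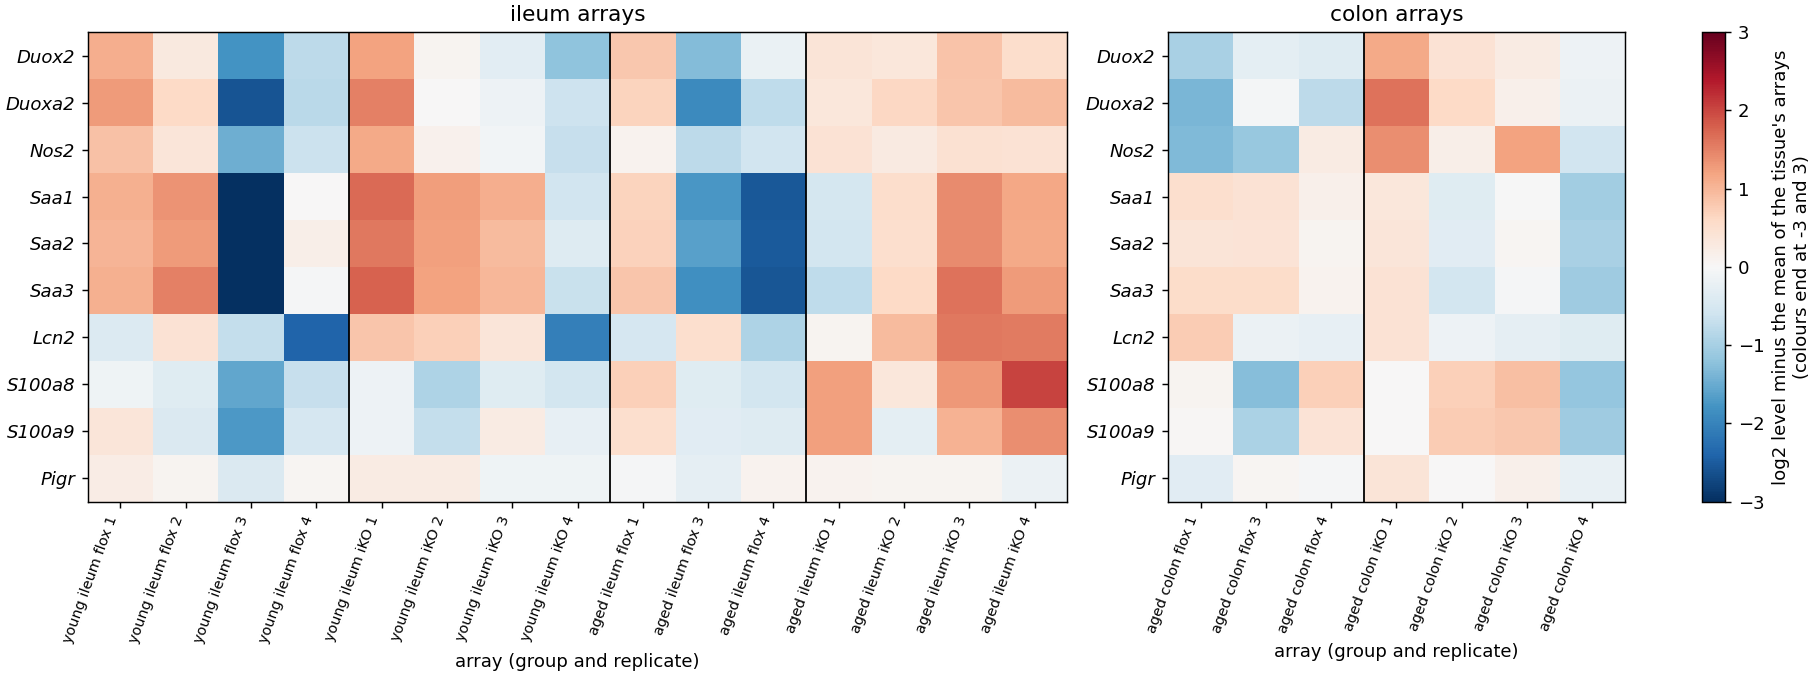
Log2 level of each gene (rows) on each array (columns, by group and replicate) minus that gene's mean over the arrays of the tissue, in ileum (left) and colon (right); red is above and blue below the mean, and colours end at -3 and 3. Young ileum flox replicate 3 is blue in every row, and aged ileum flox replicates 3 and 4 are blue for Saa1, Saa2 and Saa3.

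The genes rose and fell together from 1 ileum array to the next. All 36 pairs of the 9 genes other than S100a8 had a Pearson correlation above 0 over the 15 ileum arrays (0.142 to 0.999, median 0.690), and 28 had a permutation p under 0.05 after Benjamini-Hochberg adjustment over the 36. With each group's mean removed, the median was also 0.690. All 36 were above 0 over the 8 young arrays (median 0.821) and 35 over the 7 aged arrays (median 0.688).

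Duox2 and Duoxa2, the head-to-head pair printed above, had r = 0.954 and Spearman's rho = 0.961 (both permutation p = 1e-05, the smallest the permutations can give, adjusted p = 6e-05). Without the 2 arrays farthest from the median of Duox2, r was 0.923. It was 0.961 over young and 0.966 over aged arrays. Nos2 followed both, with r = 0.949 with Duox2 and r = 0.961 with Duoxa2. Saa1 had r = 0.999 with Saa2 and r = 0.998 with Saa3, pairs whose probes may share signal.

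The 2 blocks were linked less tightly. Saa1 with Duoxa2 had r = 0.869 and rho = 0.764 (permutation p = 8e-05 and 0.00141, adjusted p = 0.00036 and 0.00423), and r = 0.702 without the 2 farthest arrays. Saa1 with Lcn2 had r = 0.435 (permutation p = 0.101, adjusted p = 0.113) but rho = 0.668 (permutation p = 0.00753, adjusted p = 0.0169). Saa1 with S100a9 had r = 0.559 and rho = 0.325 (permutation p = 0.0322 and 0.236, adjusted p = 0.0423 and 0.258), and r = 0.127 without the 2 farthest arrays. With group means removed its r was 0.639, and it was 0.800 over young and 0.656 over aged arrays, so this link was not settled. Pigr was the least linked to Lcn2, with r = 0.142 (permutation p = 0.616, adjusted p = 0.616).

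In the 7 colon arrays fewer pairs passed than in the 15 ileum arrays, and fewer arrays make it harder to pass. The median r in colon was 0.237. With each group's mean removed it was 0.637, against 0.690 in the ileum. Of 28 pairs, 4 had an adjusted p under 0.05 by exact permutation tests: Duox2 with Duoxa2 (r = 0.981) and the 3 pairs of serum amyloids (r from 0.991 to 0.995), each with an exact adjusted p = 0.00278. Duox2 with Saa1 had r = -0.131 over all 7 colon arrays (exact permutation p = 0.762, adjusted p = 0.941) and r = 0.680 once group means were removed. The oxidase pair was higher and the serum amyloids were lower in colon iKO by group means.

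**Figure D5:**
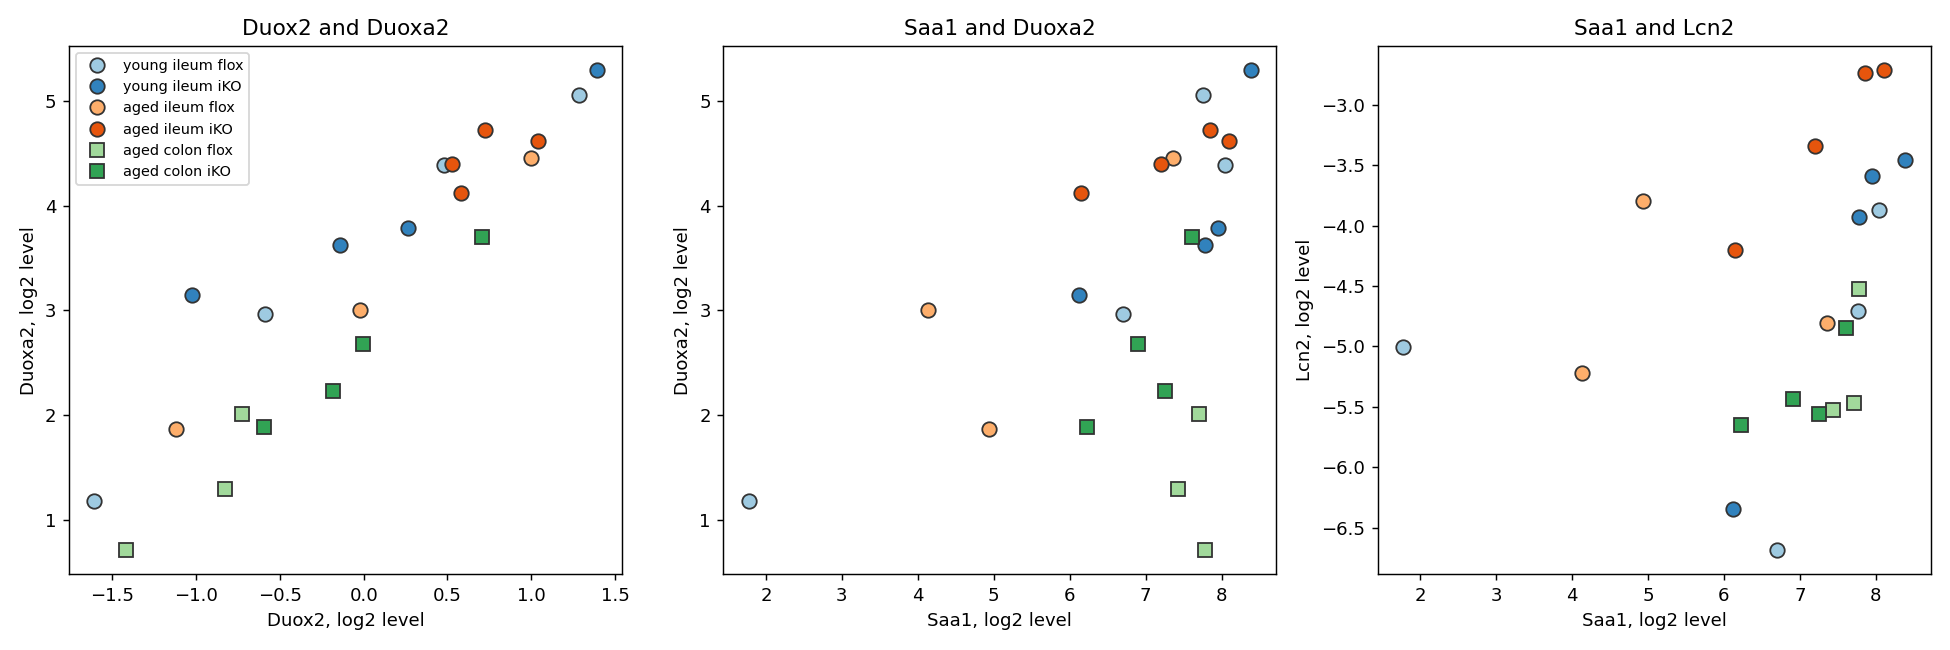
Log2 levels of 2 genes against each other on every array, for Duox2 and Duoxa2, Saa1 and Duoxa2, and Saa1 and Lcn2; circles are ileum, squares are colon, and colours are the 6 groups. Duox2 and Duoxa2 follow 1 line in the ileum (r = 0.954) and in colon (r = 0.981), Saa1 and Duoxa2 part in colon, and Saa1 and Lcn2 scatter (r = 0.435 in the ileum).

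By the likeness of their pattern over the 15 ileum arrays, given as a description, Duox2 was most like the glycosyltransferase B3gnt7 (r = 0.952), Sbno2 (0.943) and the nucleic acid sensor Zbp1 (0.930). Duoxa2 was most like Zbp1 (0.959), B3gnt7 (0.919) and the NF-kB regulator Nfkbiz (0.916), and Nos2 like Oasl1 (0.960), Sbno2 (0.958) and Zbp1 (0.957). Saa1 was most like an array transcript with no gene symbol (0.959), the antimicrobial lectin Reg3g (0.936) and Sdc3 (0.930). S100a9 was most like Serpina3g (0.876), Lcn2 like the sugar transporter Slc5a9 (0.866) and Pigr like the immunoproteasome subunit Psmb10 (0.915).

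Age alone moved none of these genes past the threshold. Between aged and young flox ileum 0 of 9 passed limma's test, against 8.53% of 15487 genes, and 0 had an unadjusted p under 0.05. Between aged and young iKO ileum 0 of 9 passed, against 10.7%, and 1, S100a9, had an unadjusted p under 0.05. The test of whether the genotype difference depended on age passed for 0 of 9 by limma, against 0% of all genes, and 0 of the 9 had an unadjusted p under 0.05. Young arrays lay in positions 1 and 2 of the slides and aged arrays in positions 3 and 4, so age and position cannot be told apart.

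Between aged colon and aged ileum, Nos2 fell in colon in both genotypes, Duoxa2 fell in both, Lcn2 fell in iKO and Saa1 rose in flox. In flox 3 of 9 passed (1 higher and 2 lower in colon), against 32.9% of 19640 genes (19.1% higher and 13.7% lower), and in iKO 3 of 9 passed, all lower, against 43.6% (24.2% higher and 19.4% lower). Nos2, mostly dim in colon, is 1 of the 3 in each genotype. All colon arrays were on other slides than the ileum arrays, so tissue and array run cannot be told apart.

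Nos2 differed, colon minus ileum, by -4.46 ± 0.51 in flox (adjusted p = 7.11e-05) and by -3.98 ± 0.44 in iKO (adjusted p = 2.64e-05) by limma. Nos2 entered this fit only through its ileum groups, where it was high. Its colon levels are mostly dim, so the fitted sizes, errors and p-values rest largely on dim spots and are not exact. In each genotype every colon array read below every aged ileum array. Because no flox colon array was well above background, no exact fold can be given for flox. Against the lowest level that was well above background on each colon flox array, Nos2 in aged flox ileum was 8.99-fold higher. That is not a strict bound. On young flox replicate 3 the Nos2 spot, at -4.21, was not well above background, although the lowest level that was stood at -4.48. In iKO only 2 of 4 colon arrays measured Nos2, and no fold is given. Lcn2 differed by -2.12 ± 0.39 in iKO (adjusted p = 0.00102; limma) and by -0.57 in flox, which did not pass. Duoxa2 differed by -1.77 ± 0.60 in flox (adjusted p = 0.0393) and by -1.84 ± 0.52 in iKO (adjusted p = 0.0129) by limma. The flox call was lost without aged ileum flox replicate 1, an array with high colon markers (-1.09, adjusted p = 0.140; limma), and without aged ileum flox replicate 4, colon flox replicate 1 or 4, or colon iKO replicate 2 (each adjusted p above 0.05; limma). It was also lost with the replicate number as a block (adjusted p = 0.0676) and with only the groups in the contrast (adjusted p = 0.112) by limma.

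Saa1 differed by 2.16 ± 0.71 between flox colon and ileum (adjusted p = 0.0357; limma). The call held without the 2 arrays with high colon markers, where the difference was 3.10 (adjusted p = 0.00263; limma), and it was lost without aged ileum flox replicate 3 or 4 or any 1 of the 3 colon flox arrays (adjusted p up to 0.142; limma). It was also lost with the replicate number as a block (adjusted p = 0.0588) and with only the groups in the contrast (adjusted p = 0.0990) by limma. Saa2 differed by 1.95 ± 0.70 (adjusted p = 0.0511) and Saa3 by 2.11 ± 0.79 (adjusted p = 0.0591) by limma, and both passed without the 2 arrays with high colon markers (2.87, adjusted p = 0.00404, and 3.13, adjusted p = 0.00560). That choice was made after the markers were seen. For each serum amyloid the flox array left out was the highest aged flox ileum array, so leaving it out widens these differences. In iKO the serum amyloids differed between tissues by -0.33, -0.35 and -0.47, which did not pass.

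The test of whether the tissue difference depended on genotype passed for 0 of 9, against 0.0356% of all genes. The unadjusted p was under 0.05 for Saa1 (-2.49 ± 0.94, adjusted p = 0.792), Saa2 (-2.30 ± 0.93, adjusted p = 0.809), Saa3 (-2.58 ± 1.05, adjusted p = 0.809) and Lcn2 (-1.56 ± 0.60, adjusted p = 0.800, with 2 of 3 aged flox ileum spots dim) by limma. The serum amyloids varied together and their probes may share signal, so their values are not separate observations. A difference between genotypes in these tissue effects was thus not shown. Paneth cell marker sums were recorded beside the colon values: 11.1 to 22.7 in colon flox and 211, 22.8, 186 and 67.2 in colon iKO. Their part in the colon values was not tested.

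Other genes of these pathways changed with genotype in few cases. Among 14 tested relatives and users of NADPH oxidases and hydrogen peroxide, 0 passed in young or aged ileum and 0 of 18 in colon by limma. Duoxa1, the maturation factor of the neighbouring oxidase Duox1, was nearest in colon (1.22 ± 0.33, adjusted p = 0.404; limma). Their median differences were 0.05 in young ileum, 0.12 in aged ileum and 0.04 in colon. Of nitric oxide and arginine enzymes 0 of 6 passed in the ileum at either age and 0 of 7 in colon. Gch1, which makes the cofactor of nitric oxide synthases, was nearest in aged ileum (0.58 ± 0.24, adjusted p = 0.375; limma). The next there, Arg2, was lower in iKO (-0.77 ± 0.34, adjusted p = 0.402; limma). In colon Gch1 was nearest and was lower in iKO (-0.63 ± 0.24, adjusted p = 0.627; limma). Of acute phase relatives 0 of 7 passed in the ileum and 0 of 8 in colon.

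Among metal-binding and S100 relatives, 1 of 11 rose in iKO in young ileum, 1 of 11 in aged ileum and 1 of 12 in colon. The gene was the metallothionein Mt1 each time (3.70 ± 0.19, 4.35 ± 0.21 and 2.41 ± 0.21, adjusted p = 5.71e-07, 1.87e-07 and 0.0134; limma). S100a6 had 0.62 ± 0.25 in young ileum and did not pass (adjusted p = 0.999; limma). Among cytokines, receptors and regulators that induce the defence genes, 1 of 18 rose in iKO in young ileum and 1 of 18 in aged ileum. It was Il17re, the receptor chain for epithelial interleukin 17C (1.04 ± 0.15, adjusted p = 0.0208, and 1.03 ± 0.16, adjusted p = 0.0190; limma). In colon 0 of 19 passed, Il17re having 0.85 ± 0.12 (adjusted p = 0.0909; limma). The median of that list was 0.07 in young ileum, 0.24 in aged ileum and 0.12 in colon. Socs3, the feedback inhibitor of STAT3, had 1.53 ± 0.43 in aged ileum and did not pass (adjusted p = 0.203; limma), nor did the RNase Zc3h12a in colon (1.31 ± 0.32, adjusted p = 0.343; limma).

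Of the 15 other inducible defence genes tested, 0 passed in any genotype comparison by limma. Of these, 11 were higher in iKO in young ileum, 10 in aged ileum and 9 in colon, with medians of 0.19, 0.28 and 0.28. In the ileum the nearest gene at both ages was Reg1, which was lower in iKO. Reg1 had -0.943 ± 0.345 (adjusted p = 0.999) in young ileum and -1.003 ± 0.373 (adjusted p = 0.321) in aged ileum by limma. The goblet cell factor Retnlb (3.53 ± 1.12, adjusted p = 0.511; limma) and the fucosyltransferase Fut2 (0.67 ± 0.18, adjusted p = 0.404; limma) were nearest in colon. Of genes for immunoglobulin transport and IgA induction, which surround Pigr in function, 0 of 10 passed in the ileum at either age and 0 of 11 in colon. The IgA cell chemokine Ccl25 differed between colon and ileum by -6.38 in flox (adjusted p = 1.67e-08) and by -6.64 in iKO (adjusted p = 2.03e-09) by limma, while Pigr differed by -0.17 and -0.08 and did not pass.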

How the data were processed

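Arrays were scanned and quantified with Agilent Feature Extraction 9.5, per the submitters' processing notes. The deposited value used was the processed spot intensity of the authors' 1-colour scanner files, background-corrected by the scanner software per the file headers, with its flag for spots well above background. The authors' series table held the same values and was not used.

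Control and outlier spots were dropped, spots of a probe averaged, and the array's 75th percentile subtracted on the log2 scale. Of 41174 probes, 22951 were matched to the RefSeq table on an accession, 6659 on the symbol and 3109 on an older symbol, and 8455 kept the name in the file. The brightest probe stood for a gene, and it entered a fit if all arrays of 1 or more groups showed it well above background. Fits used limma 3.58.1 in R 4.3.3: all 15 ileum arrays, all 7 colon arrays, or all 14 aged arrays for tissue differences. Adjusted p is Benjamini-Hochberg over all genes tested, with a threshold of 0.05. Correlations (100000 permutations, exact in colon) and figures used Python 3.11.15, pandas 2.3.3, SciPy 1.17.1 and matplotlib 3.10.9. The fit was tested on simulated data.

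The members and the lists were chosen with earlier results of these data known. Members are given an error and adjusted p where a difference passed or had an unadjusted p under 0.05, and Duox2, Lcn2 and Pigr in every genotype comparison; from each list, genes that passed are named, or else up to 2 with the smallest p. Alternatives were quantile normalization, normexp background correction (offset 50), other filters on dim probes, other probes, array weights, slide or position terms, the replicate number as a block, fewer groups in the fit and leaving out each array. Leaving out both aged ileum arrays with high colon markers was added after seeing the data. Each young slide held 1 flox and 1 iKO array. In young ileum, flox arrays lay in position 1 and iKO arrays in position 2, so genotype and position cannot be told apart there.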

Additional observations from a re-analysis of the deposited data

Results flagged for a closer look

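Among the 10 genes in the 4 groups of 4 arrays (40 groups of values), 3 had 1 array far from the other 3 by Dixon's test, and chance gives about 1 in 20. Nos2 was lowest on aged ileum iKO replicate 2, at -2.48 with the next at -2.31, a small gap in a group whose other arrays lay very close together. That array is 1 of the 2 with high colon markers. Lcn2 was lowest on young ileum iKO replicate 4, at -6.34 with the next at -3.93, and that spot was not well above background. Pigr was lowest on aged ileum iKO replicate 4, at 5.65 with the next at 5.91.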

How the results depend on the processing

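No member passed in a genotype, ageing or interaction comparison under most settings. The exceptions were 5 members in aged ileum iKO against flox with array weights (S100a9, Lcn2, Saa1, Saa2 and Saa3, where 2815 genes passed in all) and, in aged against young iKO ileum, 1 member without the filter on dim probes, 1 leaving out both arrays with high colon markers (added after seeing the data), and 0 to 1 leaving out 1 array. For flox colon against ileum, where 3 passed, the count was 5 with quantile normalization, 6 with normexp, 5 with array weights, 1 (Nos2) with the replicate number as a block, 1 (Nos2) with only the groups in the contrast and 1 to 5 leaving out 1 array; for iKO it was 1 with the stricter filter. The block changed no other count of members. Replicate numbers were not shown to pair the arrays: of 21 same-numbered ileum pairs 14 had a correlation of deviations above 0.1 (-0.36 to 0.37), and of 3 colon pairs 0 (-0.12 to 0.10). Signs turned for Duox2 in young ileum (-0.27 to 0.70 leaving out 1 array; -0.27 without young flox replicate 3, -0.19 without young iKO replicate 1), Pigr in young ileum (-0.063 to 0.16 leaving out 1 array), Pigr in aged ileum (-0.083 with array weights, -0.020 with slide fixed, -0.0076 to 0.18 leaving out 1 array) and Lcn2 in colon (0.0070 with normexp, -0.38 to 0.12 leaving out 1 array, 0.12 without colon flox replicate 1). Of 60 group means, 6 moved by more than their SD with quantile normalization and 16 with normexp. The cause was not tested. The median spread over members, 1.05 in the ileum, stayed between 0.883 and 1.16. All genes called ranged from 3 to 12 in young ileum, from 5 to 2815 in aged ileum, from 1 to 45 in colon, from 399 to 4840 for flox ageing, from 638 to 2287 for iKO ageing and from 0 to 4 for genotype by age. For flox tissue the count reached 10831 and for iKO tissue 13362 without the filter, and for genotype by tissue it ran from 2 to 12. Dim spots limit S100a8 everywhere, Lcn2 in the ileum and Nos2 in colon.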
